A study of Mus musculus with 3 samples.

Results

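The genes described here encode the giant scaffold proteins AHNAK and AHNAK2, annexins A1 to A6 and the S100 proteins S100A10 and S100A6. They are 10 of the 55487 genes counted in RNA of mpkDCT4a cells, and were chosen by name because Ahnak is among the genes with the most reads in these cells. Their levels are therefore given as a description, with no test. mpkDCT4a is a mouse kidney line made from distal convoluted tubule cells, the short nephron segment that recovers sodium chloride through a thiazide-sensitive cotransporter. All 3 libraries, replicates 1 to 3, came from WT cells kept at 37 °C and 5% CO2 in medium with 2% serum, insulin (5 µg/ml), transferrin (5 µg/ml), glucose (20 mM), dexamethasone (50 nM), triiodothyronine (1 nM) and epidermal growth factor (10 ng/ml). The study was set up to describe gene regulation in this segment, and with 1 group it holds no comparison between conditions. Whether the replicates were separate cultures is not stated in the labels, so a p-value here measures the spread between these libraries, which may be technical.

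Annexins are soluble proteins that bind acidic phospholipids when calcium rises, so they gather at the inner face of the plasma membrane and of endosomes. Annexin A2 pairs with S100A10, a member of the S100 family that keeps an active shape without calcium, and the resulting tetramer holds the AHNAK scaffold, actin and several ion channels at the membrane. These proteins are known for closing wounds in the membrane, for placing plasminogen at the cell surface and, in the distal nephron, for bringing the epithelial calcium channels to the apical membrane.

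All 10 genes were detected, meaning a mean of at least 1 CPM (counts-per-million of library size) over the 3 libraries, against 50.6% of the 21974 protein-coding genes. In 9 of the 10 genes the mean was at least 100 CPM, a level reached by 12.2% of protein-coding genes, and all 10 lay at 10 CPM or more, against 40.8%. Together they took 0.808%, 0.815% and 0.816% of the counts of replicates 1, 2 and 3, so the sum differed little between the libraries. Per transcript length, in TPM (transcripts-per-million) from the union of each gene's annotated exons, their median was 416 TPM, against 31.4 TPM over the 11122 detected protein-coding genes. These are sums over all cells of a culture, in which fewer cells of a kind and less RNA per cell cannot be told apart.

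The labelled cell type was checked against markers. Of 12 distal convoluted tubule markers, 5 were detected, against 50.6% of protein-coding genes, and 2 reached 10 CPM, against 40.8%. These 2 were the kinase gene Wnk4 (45.2 ± 11.2 CPM, SD, n = 3) and the magnesium transporter gene Cnnm2 (19.8 ± 3.23 CPM). Trpm6 had 2, 3 and 7 counts (8.84 CPM) and Kcnj10 3, 2 and 4 counts (6.67 CPM) in replicates 1, 2 and 3. Egf, also detected, had 3 counts in all. The thiazide-sensitive cotransporter gene Slc12a3 and the calcium-buffer genes Pvalb and Calb1 had 0 counts in every library, a count that allows a level of at most 2.20 CPM, or 3 counts over the summed libraries. All 6 epithelial markers were detected, among them the keratin genes Krt18 (420 ± 15.5 CPM) and Krt7 (409 ± 38.1 CPM). Dsp had 380 ± 9.28 CPM and Krt8 275 ± 20.9 CPM, with 29.7% of the 50-base stretches of Krt8 in other annotated genes. Cdh1 was lower, at 63.8 ± 20.6 CPM. Epcam was near the floor, with 0, 4 and 0 counts in replicates 1, 2 and 3 (2.76 ± 4.78 CPM). Marker sums were 13.4 to 26.9 CPM per library for 10 fibroblast and smooth muscle genes (4 detected, Col3a1, Pdgfra and Lum at 0). Over the summed libraries, Tagln and Col1a1 had 10 counts each and Acta2 and Pdgfrb 3 each. Of the 50-base stretches of Tagln, 48.3% occur in other annotated genes. For 9 endothelial genes the sum was 10.4 to 13.4 CPM, with 2 detected, Flt1 (14 counts) and Egfl7 (2 counts), and Pecam1 and Cdh5 at 0. For 10 leukocyte genes it was 37.3 to 62.7 CPM, with 2 detected, Csf1r (62 counts) and Cd68 (5 counts), and Ptprc at 0. Of the leukocyte sum, 45.8 CPM was Csf1r, the receptor gene for a macrophage growth factor, of whose 50-base stretches 17.7% occur in other annotated genes, most often in one that overlaps it on the opposite strand. Proximal tubule markers numbered 3 detected of 8, against 50.6% of protein-coding genes. Lrp2, which encodes the uptake receptor megalin, had 215 CPM. Aqp1 had 60.3 ± 17.8 CPM, a higher mean than Wnk4, and Cubn had 7 counts in all. The 5 others, among them Hnf4a, Slc22a6, Slc34a1 and Slc5a12, had 0 counts in every library. The part of any other cell type in the levels below was not tested.

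Ahnak (ENSMUSG00000069833; mm10 chromosome 19, 8989284 to 9076914, plus strand) encodes a scaffold of very large size that links the annexin A2 complex to actin and to calcium channel subunits. It had 2099, 2335 and 2220 counts in replicates 1, 2 and 3, or 4843, 4835 and 4973 CPM. The libraries lay close together, with replicate 3 slightly higher, and the coefficient of variation of 1.58% was below the 2.12% that counting error alone gives. Actb was the only protein-coding gene with more counts (7512 ± 281 CPM, n = 3).

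That standing was one of reads and not of transcripts. The exons of Ahnak span 19938 nt together, against a median of 4644 nt over detected protein-coding genes, and nearly all of the coding sequence of its full transcript, 16623 of 16968 nt, lies in a single exon. Per length Ahnak had 881, 899 and 926 TPM in replicates 1, 2 and 3, and ranked 90th among protein-coding genes. The genes nearest to it at this level were Hspa5 (925 ± 66.6 TPM), Aldoa (912 ± 69.7 TPM) and Arhgdia (902 ± 14.6 TPM) just above, and Myh9 (901 ± 21.9 TPM), Atp5a1 (899 ± 57.4 TPM) and Hsp90aa1 (897 ± 64.2 TPM) just below. Hspa5 encodes a chaperone of the endoplasmic reticulum, Aldoa a glycolytic enzyme, Myh9 the heavy chain of non-muscle myosin, Atp5a1 a subunit of ATP synthase and Hsp90aa1 a cytosolic chaperone. Likeness here means only the mean level over the 3 libraries, since with 1 condition no pattern across conditions exists. Of the counts of the 10 genes Ahnak held 60.1%, but of their summed TPM it held 13.6 ± 0.495% (n = 3).

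The length of Ahnak comes from a repeated sequence, shown here because it also bears on how reads are counted. Of the 50-base stretches of its transcript, 21.3% occur more than once within it, falling to 15.5% for 75-base and 11.4% for 100-base stretches, while none occurs in a transcript of another annotated gene. Over shifts of 60 to 600 nt the coding sequence matched itself best at 384 nt, or 128 codons, where 46.4% of bases were identical against a median of 24.9%. The neighbouring units most alike, coding bases 10039 to 10422 and 10423 to 10806 of transcript Ahnak-202 in GENCODE M21 (GRCm38, chromosome 19), are identical at 372 of 384 bases (96.9%). The first 300 bases of each are printed, with capitals at the 10 bases that differ between them.
Ahnak unit A: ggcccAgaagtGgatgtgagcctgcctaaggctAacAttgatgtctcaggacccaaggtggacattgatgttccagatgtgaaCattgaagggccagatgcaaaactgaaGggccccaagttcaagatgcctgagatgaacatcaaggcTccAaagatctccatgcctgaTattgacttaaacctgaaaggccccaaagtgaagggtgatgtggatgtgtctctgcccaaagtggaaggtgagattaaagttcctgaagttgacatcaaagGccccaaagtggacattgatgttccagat
Ahnak unit B: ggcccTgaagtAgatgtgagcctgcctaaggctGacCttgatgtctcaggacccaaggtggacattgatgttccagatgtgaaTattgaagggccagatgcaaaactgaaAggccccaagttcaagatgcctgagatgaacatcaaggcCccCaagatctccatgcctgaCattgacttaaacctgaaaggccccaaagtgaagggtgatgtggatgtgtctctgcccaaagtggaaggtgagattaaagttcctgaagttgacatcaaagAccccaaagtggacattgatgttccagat
A read that lies wholly between differing bases matches both units, and the sources used here do not say how such reads were counted.

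Ahnak2 (ENSMUSG00000072812; chromosome 12, 112772194 to 112802657, minus strand), the paralog scaffold, had 51, 34 and 48 counts, or 118, 70.4 and 107.5 CPM in replicates 1, 2 and 3. Replicate 2 was the lowest, and the coefficient of variation of 25.3% stood beside 15.0% from counting alone. Ahnak exceeded Ahnak2 by 50.0-fold in counts (95% exact binomial interval 42.1 to 59.9, counting error only) and by 35.5-fold per length (29.9 to 42.5), in all 3 libraries. The annotation of Ahnak2 holds 4 coding transcripts, 3 of them with a single exon, and with other definitions of length the ratio was 14.8 to 30.2. Those definitions cover only part of the annotated exons of Ahnak2, since its longest transcript has 5443 nt and its exon union 14163 nt. Repeats were searched in 1 transcript, Ahnak2-202 (5347 nt), and the remaining annotated exons of Ahnak2 were not searched. The coding sequence of Ahnak2-202 is also repeated, with a best shift of 519 nt at 56.8% identity against a median of 27.2%. Some 59.97% of its 50-base stretches recur within that transcript, against 21.3% in Ahnak-202, which has 18100 nt. How far the count of Ahnak2 depends on the treatment of such reads was not tested.

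**Figure D1:**
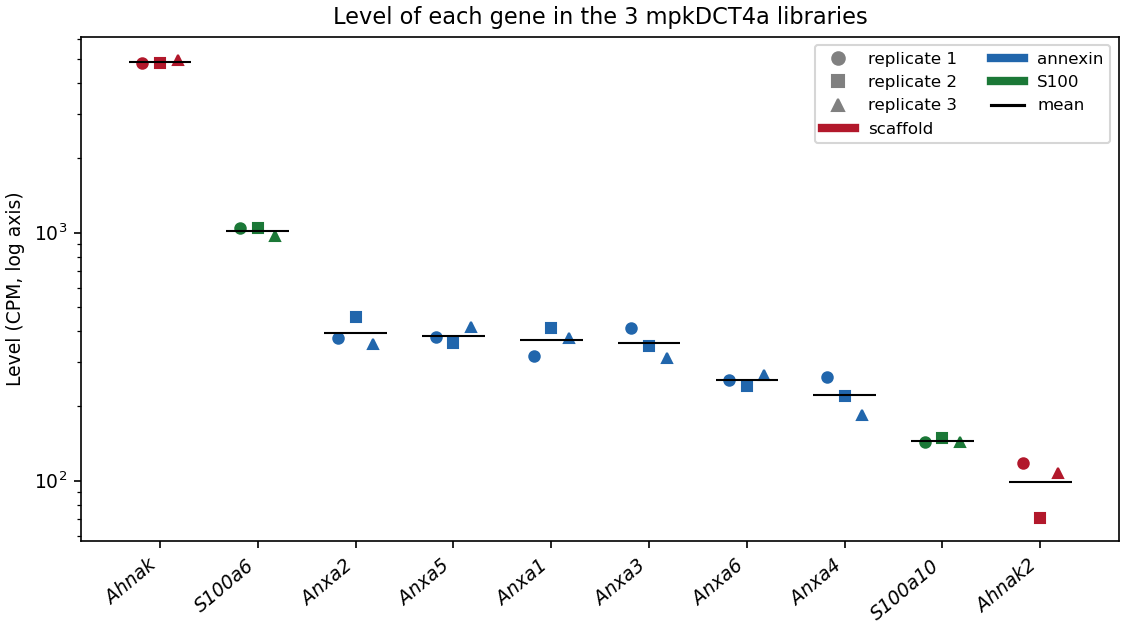
Level of each of the 10 genes in CPM (log axis) in the 3 mpkDCT4a libraries, with circles, squares and triangles for replicates 1, 2 and 3 and a bar for the mean. Ahnak lies near 4884 CPM and S100a6 near 1019 CPM with the libraries close together, and Ahnak2 is lowest with replicate 2 at 70.4 CPM.

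Among the annexins, Anxa5 had the highest level per length when the exon union was used, but with each of the 3 other definitions of length Anxa3 or Anxa2 stood above it. Its product is the annexin used as a stain for exposed phosphatidylserine, and it forms lattices on damaged membrane. Anxa5 (chromosome 3, minus strand) had 165, 173 and 185 counts and 777, 748 and 866 TPM in replicates 1, 2 and 3, with replicate 3 highest. Per length Ahnak exceeded Anxa5 by 1.13-fold (1.04 to 1.24), and their libraries did not overlap. With the mean length of coding transcripts Ahnak had 1362 TPM and Anxa5 669 TPM. For Ahnak that mean takes in short coding transcripts of 830 and 2200 nt beside the full one of 18100 nt. Anxa1 encodes a glucocorticoid-inducible annexin that restrains inflammation. Anxa1 (chromosome 19, minus strand) had 138, 200 and 167 counts and 397, 528 and 477 TPM. Replicate 1 was lowest and replicate 2 highest, and all 3 libraries lay below those of Anxa5 (Anxa5 over Anxa1 1.70-fold, 1.498 to 1.92). That gap rests on the exon union, since Anxa5 had 637 TPM and Anxa1 632 TPM with the longest transcript, and Anxa5 565 TPM and Anxa1 561 TPM with the transcript of the longest coding sequence.

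Anxa2, the partner of S100A10, and Anxa3, whose product is known from neutrophil granules, followed. Anxa2 (chromosome 9, plus strand) had 163, 220 and 158 counts and 365, 453 and 352 TPM. Anxa3 (chromosome 5, plus strand) had 179, 169 and 139 counts and 411, 356 and 317 TPM. Anxa2 was highest in replicate 2 and Anxa3 in replicate 1, and their ranges overlapped, with Anxa2 over Anxa3 at 1.08-fold (0.958 to 1.23). With the longest transcript the direction turned, at 497 TPM for Anxa2 and 643 TPM for Anxa3. The first coding bases of Anxa1 and Anxa2 encode the short tail that sets these annexins apart from each other, since in annexin A2 it is the part that binds S100A10 and in annexin A1 it is the source of peptides active on formyl peptide receptors. They are given from transcripts Anxa1-201 and Anxa2-201 of GENCODE M21, with the start codon in capitals.
Anxa1: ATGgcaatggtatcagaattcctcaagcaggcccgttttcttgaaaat
Anxa2: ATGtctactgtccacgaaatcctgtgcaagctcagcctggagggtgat
Over the aligned part of the coding sequences Anxa1 and Anxa2 were identical at 646 of 976 bases (66.2%).

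Anxa6 and Anxa4 were the lowest of the 6 under every definition of length. Anxa6 encodes the only annexin with a second copy of the conserved core, and it works at late endosomes and as a holder of protein kinase C and of a Ras inhibitor. Anxa6 (chromosome 11, minus strand) had 110, 116 and 119 counts and 314, 304 and 338 TPM, with little difference between libraries. Its coding sequence of 2019 nt is the longest among them, and its first and second parts were identical at 622 of 956 aligned bases (65.1%). Between the 5 other annexin genes described here the share was 61.8% to 66.2%. Anxa4, whose product is an annexin of polarised epithelia, had 113, 106 and 82 counts and 203, 175 and 147 TPM (chromosome 6, minus strand). Replicate 3 was lowest, and with the exon union every library lay below those of Anxa6 (Anxa6 over Anxa4 1.82-fold, 1.55 to 2.13). Which of them was higher depends on the length, since Anxa4 over Anxa6 was 1.74 with the mean coding transcript and 1.07 with the longest coding sequence.

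Sharing of sequence with other genes was looked for in 1 transcript per annexin, the one with the longest coding sequence. None of the 50-base stretches of that transcript of Anxa1, Anxa2, Anxa3, Anxa5 or Anxa6 occurs in an annotated transcript of another gene, and in Anxa4 the share was 1.46%, most often in an overlapping long non-coding gene with 0 counts. Over all annotated exons, those of Anxa2 overlap those of an antisense gene by 98 nt (0 counts), and those of Anxa3 overlap an unclassified gene on the same strand by 112 nt (1, 5 and 2 counts). The sources used here do not say whether reads were counted by strand.

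S100a6 (ENSMUSG00000001025; chromosome 3, 90612882 to 90624181, plus strand) encodes calcyclin, a small calcium sensor of growing and stressed cells. It had 451, 505 and 433 counts and 2759.7, 2836 and 2635 TPM in replicates 1, 2 and 3. Replicate 3 was slightly lower, and S100a6 ranked 15th among protein-coding genes by TPM and 49th by CPM. Of the summed TPM of the 10 genes it held 41.4 ± 0.916% (n = 3), and it exceeded Ahnak by 3.04-fold per length (2.87 to 3.23) in all 3 libraries. With the longest transcript as length, S100a6 had 3729.9 TPM and Ahnak 774 TPM, a wider gap. S100a10 (ENSMUSG00000041959; chromosome 3, 93555080 to 93564643, plus strand), the partner of annexin A2, had 62, 72 and 64 counts and 428, 456 and 439 TPM. The 3 libraries lay close together, and S100a6 exceeded S100a10 by 6.22-fold per length (5.36 to 7.26). The coding sequences, from transcripts S100a6-201 and S100a10-201 of GENCODE M21, are printed whole to show how far these small genes differ, with capitals for the 155 identical bases among 255 aligned (60.8%).
S100a6: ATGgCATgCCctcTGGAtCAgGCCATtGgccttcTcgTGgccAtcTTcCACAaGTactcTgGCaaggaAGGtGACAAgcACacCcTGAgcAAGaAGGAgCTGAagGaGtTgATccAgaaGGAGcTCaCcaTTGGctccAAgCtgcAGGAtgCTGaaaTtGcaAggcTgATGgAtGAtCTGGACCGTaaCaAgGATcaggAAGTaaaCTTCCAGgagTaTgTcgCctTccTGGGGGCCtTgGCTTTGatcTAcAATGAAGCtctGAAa
S100a10: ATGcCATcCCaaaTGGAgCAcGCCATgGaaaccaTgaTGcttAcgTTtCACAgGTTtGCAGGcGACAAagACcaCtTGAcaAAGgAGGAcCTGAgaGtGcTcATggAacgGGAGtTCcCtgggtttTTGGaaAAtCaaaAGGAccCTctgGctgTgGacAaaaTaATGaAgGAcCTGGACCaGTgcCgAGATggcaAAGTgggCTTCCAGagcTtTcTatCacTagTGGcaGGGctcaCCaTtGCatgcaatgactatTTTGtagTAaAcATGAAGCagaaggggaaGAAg
Sharing with other genes was searched in S100a10-201 and, for S100a6, in another transcript, S100a6-204. No 50-base stretch of either occurs in a transcript of another annotated gene, and S100a6-201 as a whole was not searched.

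Per length the order was S100a6, Ahnak, Anxa5, Anxa1, S100a10, Anxa2, Anxa3, Anxa6, Anxa4 and Ahnak2. Of the 9 pairs of neighbours in it, 4 overlapped between libraries: Anxa1 and S100a10, S100a10 and Anxa2, Anxa2 and Anxa3, and Anxa3 and Anxa6. The counting intervals of these 4 ratios all held 1, so the order of these neighbours was not resolved at this depth. The order also rests on the length assigned to each gene. S100a6 stood first and Ahnak2 last in all 7 settings of length and of libraries used, but Ahnak was second in 6 of them. With the length of the transcript that has the longest coding sequence, a choice added after the data were seen, Ahnak had 686 TPM and Anxa2 695 TPM. The widest range among the annexins was that of Anxa2, at 359 to 864 TPM over the settings.

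**Figure D2:**
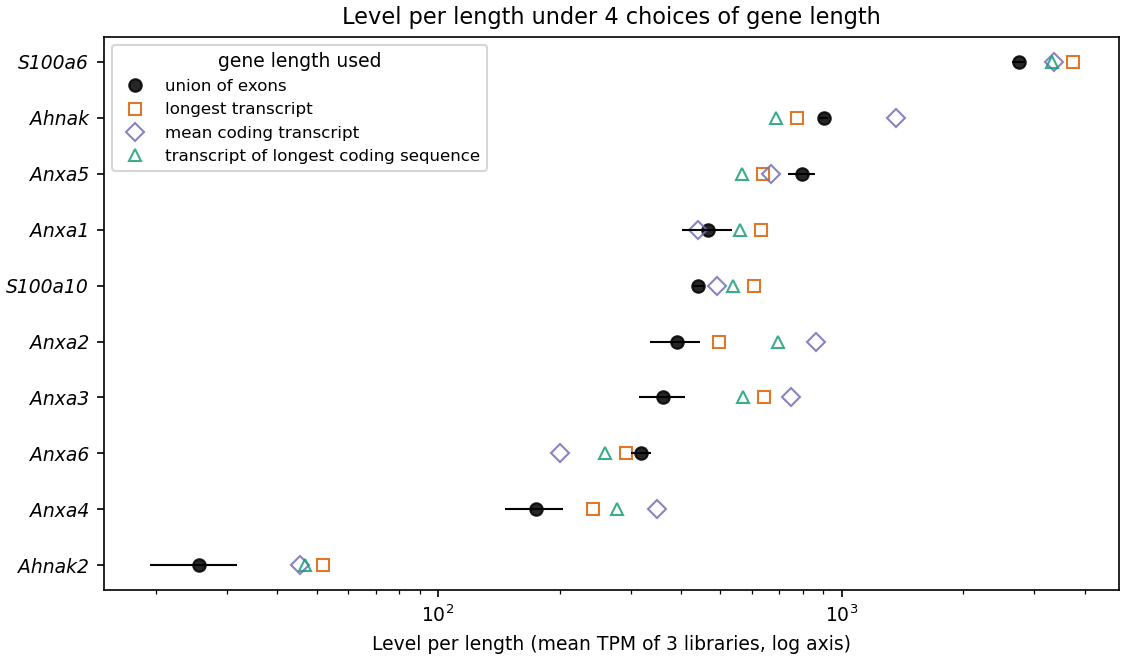
Mean TPM over 3 libraries (log axis) for the 10 genes under 4 definitions of gene length, with the SD between libraries drawn for the union of exons. S100a6 is highest and Ahnak2 lowest under each, whereas the annexins and S100a10 change places. Ahnak spans 686 to 1362 TPM, the latter with the mean coding transcript.

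Annexin A2 and S100A10 form a complex of equal numbers of each protein, so their messages were set side by side. Anxa2 had 2.73-fold the counts of S100a10 (2.32 to 3.23), yet per length the ratio was 0.888 (0.753 to 1.05), and 0 of 3 libraries had Anxa2 higher. With other lengths this ratio was 0.821, 1.77 and 1.29, so which message was more abundant depends on the transcripts assumed. Ahnak over Anxa2 was 12.3-fold in counts (11.3 to 13.5) and 2.30-fold per length (2.11 to 2.52), and between 0.983 and 1.57 with the other lengths. The ratio S100a6 over S100a10 was steadier, at 6.14 to 6.82 per length over all 4 definitions.

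The annexin family as a whole had 12 genes in the table, of which 10 were detected, against 50.6% of protein-coding genes. Its sum was 2699 ± 58.6 TPM by the exon union (n = 3). Anxa1 to Anxa6 supplied 93.0 ± 0.269% of that sum. The 6 others were Anxa7, which encodes a fusion factor of secretory granules, at 76.4 ± 7.40 TPM, Anxa8 at 69.5 ± 28.6 TPM, Anxa11, a tether of RNA granules to lysosomes, at 37.5 ± 8.48 TPM, Anxa9 at 6.70 ± 6.13 TPM from 5 counts, and Anxa10 and Anxa13 with 0 counts. Of the 50-base stretches of Anxa11, 28.9% occur in other annotated genes, most often in a pseudogene that had 0 counts, so its value is uncertain. Anxa8 was uneven, with 13, 25 and 11 counts in replicates 1, 2 and 3.

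Among 16 S100 genes 7 were detected, against 50.6% of protein-coding genes, and 8 had 0 counts. Their sum was 5102 ± 166 TPM (n = 3). S100a6 held 53.8% of it, S100a11 34.1% and S100a10 8.65%. S100a11, whose product pairs with annexin A1 and with annexin A2 at wounded membrane, had 116, 111 and 102 counts and 1742 ± 136 TPM, 3.94-fold S100a10 per length (3.29 to 4.72) and 1.66-fold in counts. With the other definitions of length the ratio was lower, at 1.89 to 2.23. Of its 50-base stretches, 41.1% occur in other annotated genes, most often in a processed pseudogene with 0 counts, so its value is uncertain. S100a16 (84.8 ± 16.4 TPM), S100a13 (40.9 ± 21.2 TPM) and S100a1 (38.8 ± 4.73 TPM) were lower. These values rest on few reads, with 51 counts in all for S100a16, 11 for S100a13 and 10 for S100a1. S100a4, the metastasis-associated calcium sensor encoded near S100a6, had 2 counts in all, a ratio to S100a6 of 0.00144 in counts (0.000174 to 0.00521), but 56.3% of its 50-base stretches occur in other annotated genes, most often in an overlapping one with 0 counts, so its value is uncertain. S100a14 had 1 count, and S100a3, S100a5, S100a7a, S100a8, S100a9, S100b, S100g and S100z had 0. Of these genes without reads, S100b encodes a known binder of AHNAK, and S100g the small calbindin of calcium-transporting epithelia.

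Most S100 genes of the mouse lie together on chromosome 3, which allowed their levels to be set against position. With the start of S100a6 at 0 kb, its neighbours S100a5 and S100a7a start at -4.36 kb and 41.1 kb. Both had 0 counts, as did S100a8 and S100a9, subunits of calprotectin, at 56.1 and 82.8 kb. S100a2, which was named after its value was seen, also had 0 counts. The detected genes S100a1, S100a13 and S100a16 start at -98.5, -98.4 and -75.6 kb. S100a4, which counted as detected with 2 counts in all, starts at -9.11 kb. S100a11 and S100a10 start at 2908 and 2942 kb, far from the others and close to each other.

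**Figure D3:**
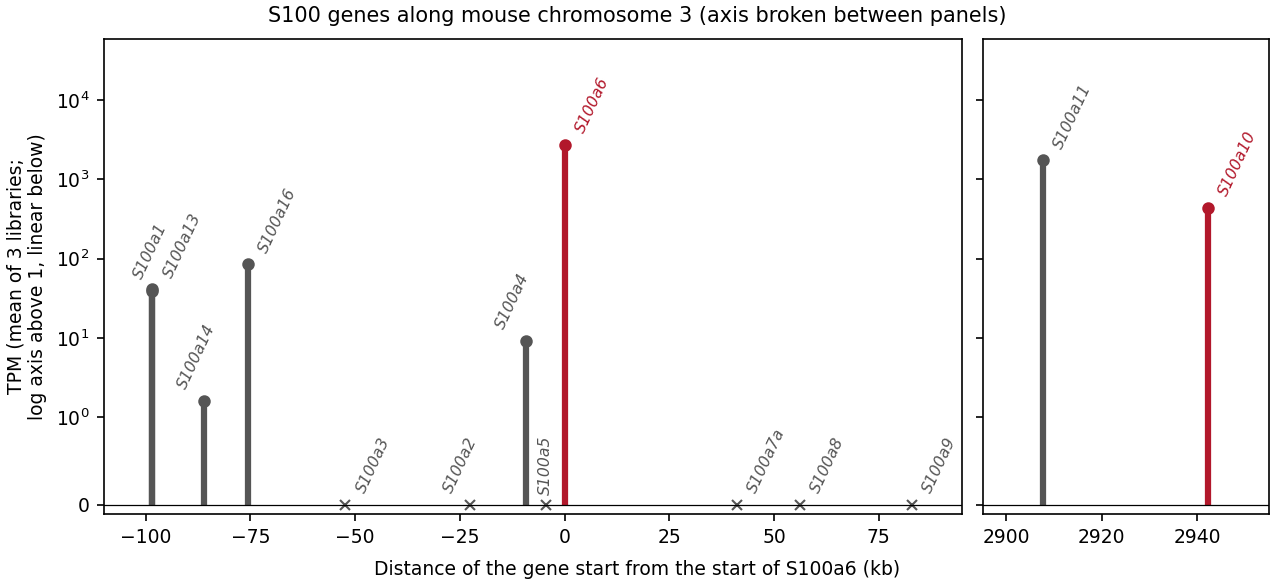
Mean TPM over 3 libraries (log axis above 1, linear below) of the S100 genes on chromosome 3 against the distance of each gene start from that of S100a6 in kb, with the axis broken before S100a11 and S100a10. S100a6 at 2744 TPM stands between genes with 0 counts (crosses) and S100a4 with 2 counts.

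Of 11 genes for partners of AHNAK and subunits of L-type calcium channels, 6 were detected, a share near the 50.6% of all protein-coding genes. They were led by the actin genes Actb (7512 CPM) and Actg1 (285 ± 2.78 CPM). Of the 50-base stretches of Actg1, 56.7% occur in other annotated genes, so its value is uncertain, as is to a lesser degree that of Actb (14.2%). Next came Plcg1, the phospholipase that AHNAK activates, with 193 ± 9.98 CPM. Of the L-type calcium channel genes in the list, Cacnb3 had 84.6 ± 12.5 CPM, whereas the pore subunit gene Cacna1c and the beta subunit genes Cacnb2 and Cacnb4 had 0 counts and Cacna1d and Cacnb1 had 1 count each.

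Of 10 genes whose products are known to bind S100A10, 4 were detected, against 50.6% of protein-coding genes. The epithelial calcium channel genes Trpv5 and Trpv6 had 0 counts in every library, as had Kcnk3, Scn10a and Htr4, and Asic1 had 1 count. Those with reads were Ctsb, a lysosomal protease that also sits on the annexin A2 complex (157, 215 and 171 counts, 397 ± 43.2 CPM, with 15.4% of its 50-base stretches in other annotated genes), Hltf, a chromatin remodeller (70.0 ± 8.72 CPM), Dlc1 (22.0 ± 1.60 CPM), and the serotonin receptor gene Htr1b (4.47 CPM).

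In the plasminogen system, for which the annexin A2 complex is a surface receptor, 5 of 8 genes were detected, against 50.6% of protein-coding genes. The activator gene Plau had 34, 47 and 38 counts (87.0 ± 9.58 CPM) and Plat 12, 18 and 13 counts (31.4 ± 5.17 CPM). Plau exceeded Plat by 7.30-fold per length (5.11 to 10.6) and by 2.77-fold in counts, in every library, and by 2.98 to 4.78-fold with the other definitions of length. The receptor genes Plgrkt (27.1 ± 8.69 CPM) and Plaur (26.6 ± 8.67 CPM) were low, plasminogen itself (Plg) and the inhibitor gene Serpinb2 had 0 counts, and Serpine2 had 1 count.

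Membrane repair genes were detected in 18 of 19 cases, against 50.6% of protein-coding genes. Their median was 106 CPM, and that of all detected protein-coding genes was 39.6 CPM. Syt7 counted as detected with 2 counts, both in replicate 2. Myof, the ferlin that fuses vesicles with the plasma membrane, had 457, 517 and 488 counts (1073 ± 19.5 CPM), and Cavin1, a coat protein of caveolae, 403, 473 and 391 counts (928 ± 51.8 CPM). Myof exceeded its relative Dysf by 10.2-fold in counts (8.55 to 12.1) and 6.71-fold per length (5.65 to 8.02), in all 3 libraries, and by 9.74 to 13.1-fold with the other definitions of length. Pdcd6ip, an adaptor of the membrane-cutting ESCRT machinery, had 303 ± 18.5 CPM. The calpain gene Capn2 had 278 ± 38.8 CPM, and per length Capn2 and Capn1 lay at a ratio of 1.02 (0.854 to 1.21) with the exon union, 0.975 with the mean coding transcript and 1.83 with each of the other 2 lengths. Trim72, the muscle repair factor, had 0 counts.

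For annexin A1, the formyl peptide receptor genes Fpr1, Fpr2 and Fpr3 had 0 counts in every library. Of the 50-base stretches of Fpr2, 37.2% occur in other annotated genes, so its value is uncertain, as is to a lesser degree that of Fpr3 (7.30%). Of the 6 genes in the annexin A1 list 3 were detected, against 50.6% of protein-coding genes. These were the genes of kinases that phosphorylate annexin A1, Egfr (273 ± 48.5 CPM) and Trpm7 (177 ± 11.8 CPM), and the phospholipase gene Pla2g4a (7.34 ± 3.44 CPM). All 5 partners of annexins A6 and A11 were detected, against the same 50.6%. They were led by the vesicle coat gene Sec31a (340 ± 24.7 CPM) and the Ras inhibitor gene Rasa1 (103 ± 12.2 CPM). Pdcd6, a calcium sensor, had 71.8 CPM and the kinase gene Prkca 48.7 CPM. All 5 partners of S100A6 were detected as well, again against 50.6%. The highest were the co-chaperone genes Stip1 (459 ± 31.0 CPM) and Sugt1 (140 ± 18.0 CPM) and Cacybp, the calcyclin-binding protein gene (92.9 ± 9.25 CPM).

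The spread between libraries was tested for every detected gene, a test that did not enter the choice of the 10 genes. A chi-square test of the 3 counts against library size, with Benjamini-Hochberg adjustment over 12473 genes, called 5 genes (0.0401%) and 0 of the 10 described here, whose adjusted p ran from 0.902 to 0.998. Without adjustment, 2 of the 10 had a p under 0.05, Anxa2 (p = 0.0344) and Anxa3 (p = 0.0394) in the same chi-square test, against 4.89% of all genes and 6.06% of the 3600 genes with at least 100 counts. The median chi-square statistic was 3.80 over the 10 genes and 1.49 over those 3600, and the mean was 3.60 and 2.39. The 10 genes were not matched to those 3600 for depth. On simulated counts for the 12473 genes, the test recovered 93.8% of genes with at least 100 counts that were changed 2-fold in 1 library, but 28.3% of those changed 1.5-fold. These shares pool all genes with at least 100 counts, whereas Anxa1 to Anxa6 had 301 to 541. How often a replicate difference of 1.5-fold would be missed at that depth was not tested.

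**Figure D4:**
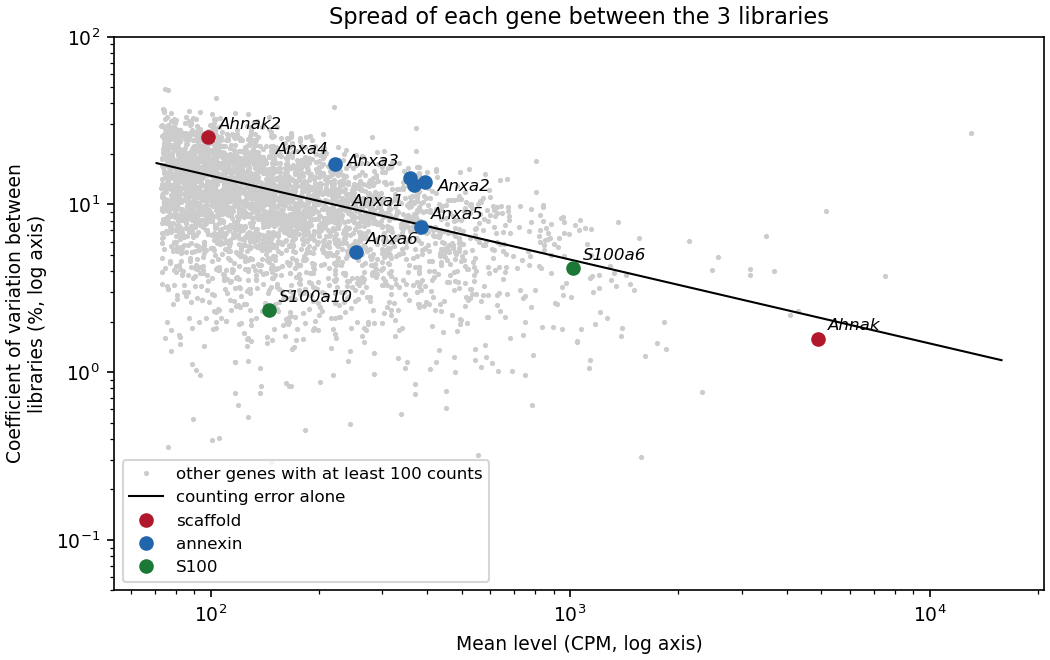
Coefficient of variation between the 3 libraries (%, log axis) against mean level (CPM, log axis) for genes with at least 100 counts, with the 10 described genes coloured by family and a line for counting error alone. Ahnak (1.58%), S100a6, S100a10, Anxa5 and Anxa6 lie at or below the line, and Ahnak2 and Anxa1 to Anxa4 above it.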

How the data were processed

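Libraries of 3 mpkDCT4a samples were built from 500 ng of RNA freed of ribosomal RNA, in fragments near 300 bp, per the labels. The authors deposited raw read counts for each Ensembl gene and sample, in whole numbers. Per the submitters' processing notes, STAR, HTSeq and the mm10 build were used. The sources used here do not give versions, strand setting, annotation release, read length or how reads with several matching places were treated.

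Libraries held 436983, 482418 and 443192 counts, so 1 count was worth 2.31, 2.07 and 2.24 CPM, and 0 counts in a library allows up to 6.92, 6.21 and 6.72 CPM. Intervals and limits are at 95% and 3 counts and cover counting error only. Mean chi-square per gene between pairs of replicates was 1.09, 1.12 and 1.05, so none was a copy of another. CPM used library sizes from TMM normalization (edgeR 4.0.16, R 4.3.3), and the common biological coefficient of variation was 0.0394. TPM and positions used GENCODE M21, which matched 55227 of 55487 identifiers. The 260 others held 0.0230% of counts. Python 3.11.15, scipy 1.17.1 and Biopython 1.88 (global alignment) were used for the rest.

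The chi-square test of replicate spread used a threshold of 0.05 and was tested on simulated data. Alternatives were DESeq2 1.42.0 size factors, library totals, other filters, a likelihood-ratio statistic, other gene lengths and leaving out each replicate. Members and lists were chosen with earlier results of these data known. The rule for naming covered all members, annexins and S100 genes, the paired genes, the 4 highest and up to 4 undetected genes of other lists, and the genes nearest to Ahnak. It was not followed in full, since some undetected genes of the cell type, copine and synaptotagmin lists are not named. Slc12a3, Trpv5, Trpv6, Cacnb4, Ptprc, Pdgfra, S100a2, Egf, Cdh1, Epcam and Syt7 were also named, after their values were seen.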

Additional observations from a re-analysis of the deposited data

How the results depend on the processing

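No paired analysis was possible because the labels give 1 group. All 10 genes stayed detected under every threshold, scaling and left-out library, including at least 10 CPM (40.8% of protein-coding genes) and at least 1 count in every library (46.6%). Under other scalings, filters and the likelihood-ratio statistic the count of varying genes stayed at 5, and it was 1 to 3 when a replicate was left out. None of the 10 was called in any setting, with lowest adjusted p between 0.731 and 0.902. The median TPM of the 10 was 620.1 with the longest transcript, 580.0 with the mean coding transcript and 562.8 with the transcript of the longest coding sequence, a choice made after seeing the data, against 416 with the exon union. Of 14 log2 ratios, 7 turned from the direction by counts in at least 1 setting. Per length with the exon union, Anxa2 over S100a10 was -0.17, Anxa1 over Anxa2 0.26 and Anxa5 over Anxa2 1.02. With the longest transcript, Anxa2 over S100a10 was -0.28, Anxa1 over Anxa2 0.35, Anxa5 over Anxa2 0.35 and Anxa3 over Anxa1 0.017. With the mean coding transcript, Anxa4 over Anxa6 was 0.80, Anxa3 over Anxa1 0.76 and Capn2 over Capn1 -0.036. With the longest coding sequence, Ahnak over Anxa2 was -0.024, Anxa4 over Anxa6 0.097 and Anxa3 over Anxa1 0.017. Leaving out a replicate gave count ratios of -0.18 to 0.12 for Anxa5 over Anxa2 (0.12 without replicate 2) and -0.25 to 0.060 for Anxa3 over Anxa1 (0.060 without replicate 2, 0.042 without replicate 3). The turns under other lengths follow from the lengths alone, since the counts are the same. Depth limits the low genes: a gene with 0 counts may have had up to 2.20 CPM.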

Other observations

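Other families whose proteins bind membranes in response to calcium were looked at after the values above were seen. Among 9 copine genes 4 were detected, against 50.6% of protein-coding genes. They were led by Cpne3 with 42, 46 and 36 counts (90.9 ± 8.95 CPM, n = 3) and Cpne2 with 8, 15 and 6 counts (20.99 ± 9.08 CPM), while Cpne8 had 6.63 CPM and Cpne5 1.38 CPM. Cpne1 had 0 counts, but 98.7% of its 50-base stretches occur in other annotated genes, most often in one that overlaps it, so that value is uncertain. Of the 4 ferlin genes besides Myof and Dysf, 0 were detected, with 1 count of Fer1l4 and 0 of Fer1l5, Fer1l6 and Otof. Among 13 synaptotagmin genes and their relatives 5 were detected, against the same 50.6%. These were led by Esyt1 and Esyt2, which tether the endoplasmic reticulum to the plasma membrane, at 383 ± 55.5 CPM and 148 ± 6.08 CPM, followed by Sytl2 (66.3 ± 7.30 CPM) and Syt11 (10.99 ± 4.41 CPM). Syt1, the calcium sensor of neuronal release, had 1 count.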
